A study of Mus musculus with 12 samples.

Results

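The levels of 6 meiotic genes were followed in mouse female germline stem cells (FGSCs), cultured ovarian germ cells that can renew themselves: Sycp2 and Syce1 of the synaptonemal complex, Smc1b and Stag3 of meiotic cohesin, and Meioc and Stra8 of meiotic entry. They were found by symbol among the 3326 genes that the authors' deposited tables list, 647 for overexpression and 3127 for knockdown of the deubiquitinase gene Usp7. All 6 were listed for knockdown. For overexpression 5 were listed, and Stra8 was not analysed there. The cells came from C57BL/6 mice, and 4 groups of 3 RNA libraries were made: Usp7 overexpression, overexpression control, Usp7 knockdown and knockdown control. The sources used here do not give the promoter of the overexpression construct, the means of knockdown, what the controls received, the age of the mice or whether replicates were separate cultures. The p-values therefore reflect the spread among the libraries, which may be technical.

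Germ cells leave the mitotic cycle when STRA8, a protein induced by retinoic acid, switches on the meiotic programme. MEIOC works with the RNA helicase YTHDC2 to hold cells in that programme and to stop a return to mitosis. Sister chromatids are then held together by cohesin rings that contain the meiosis-specific subunits SMC1B and STAG3. Homologous chromosomes are joined along their length by the synaptonemal complex, in which SYCP2 belongs to the lateral element beside each chromosome axis and SYCE1 to the central element between them. In the ovary these steps take place in fetal oocytes, and cultured germline stem cells are mitotic. All 6 are protein-coding genes in GENCODE. Processed pseudogenes lie on the opposite strand inside Syce1 and Smc1b and share 0 exon bases with them; the other 4 genes overlap no annotated gene.

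The upstream windows of the genes are shown because they hold the letters of 3 short motifs searched for in members that changed together. The windows are the 250 bases before each gene's start in RefSeq (GRCm38.p6), and all 6 genes had 1. The motifs, read on both strands and not overlapping one another, were CACGTG (the E-box read by MYC, MAX and MGA), TCCCGC (the E2F core) and CCTCAG (the core of the motif reported for STRA8). Windows with a match are given 5′ to 3′ on the gene's strand, with the match in capitals. They lie at chr5:138280259-138280508 (plus strand) for Stag3, chr15:85131958-85132207 (minus strand) for Smc1b, chr11:102665335-102665584 (plus strand) for Meioc and chr6:34920698-34920947 (plus strand) for Stra8.
Stag3: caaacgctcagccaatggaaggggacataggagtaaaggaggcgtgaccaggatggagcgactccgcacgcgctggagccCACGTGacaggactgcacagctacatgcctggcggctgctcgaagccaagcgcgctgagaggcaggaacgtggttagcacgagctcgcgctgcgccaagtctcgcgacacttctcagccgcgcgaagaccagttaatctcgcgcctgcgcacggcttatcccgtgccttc
Smc1b: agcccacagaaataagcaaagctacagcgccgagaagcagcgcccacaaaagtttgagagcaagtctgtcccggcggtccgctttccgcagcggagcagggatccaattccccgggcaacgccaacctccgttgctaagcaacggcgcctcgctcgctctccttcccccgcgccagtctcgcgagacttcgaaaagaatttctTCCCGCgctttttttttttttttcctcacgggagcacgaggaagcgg
Meioc: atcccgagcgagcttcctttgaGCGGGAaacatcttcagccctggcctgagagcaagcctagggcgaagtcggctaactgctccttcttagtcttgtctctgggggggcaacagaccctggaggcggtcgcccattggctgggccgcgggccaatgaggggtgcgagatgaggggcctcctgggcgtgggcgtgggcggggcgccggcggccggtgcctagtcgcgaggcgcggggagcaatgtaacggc
Stra8: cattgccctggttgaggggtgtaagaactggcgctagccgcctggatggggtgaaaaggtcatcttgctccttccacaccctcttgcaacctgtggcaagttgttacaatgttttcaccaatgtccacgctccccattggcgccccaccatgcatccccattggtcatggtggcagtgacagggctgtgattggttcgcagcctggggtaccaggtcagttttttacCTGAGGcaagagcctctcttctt
Stag3 held the E-box, beginning 170 bases before the start, and 6.02% of all 32851 windows of this length hold one. Smc1b and Meioc held the E2F core, which 16.9% of all windows hold, beginning 47 and 228 bases before the start. Stra8 held the CCTCAG motif in reverse complement, 23 bases before its start, and 22.3% of all windows hold it. The windows of Sycp2 and Syce1 held none of the 3. The cohesin genes had the most CpG dinucleotides, 26 in Stag3 and 25 in Smc1b, against 22 in Meioc, 13 in Syce1, 7 in Sycp2, 5 in Stra8 and a median of 6 over all windows. These matches are descriptions of letters, and binding was not measured.

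Values are the authors' normalized counts. In 10 of 12 columns they were whole multiples of 1 step, as reads scaled by a single factor are. The listed counts summed to between 128056 and 155114 per library for overexpression and its control, and to between 3.01e6 and 5.52e6 for knockdown and its control. Total depth is unknown because the tables list part of each library. Both tables hold only transcripts that passed the authors' own test, with a fold of at least 1.5 and an adjusted p under 0.05. Being listed therefore already meant being changed, and no count of members called is independent support. The transcripts used here include neither Usp7 nor the germ cell markers Ddx4 and Dazl, so the constructs and the labelled cell type could not be checked with them. Folds were fitted with limma on log2(normalized count + 1), with Benjamini-Hochberg (BH) adjustment over 613 transcripts for overexpression and 2902 for knockdown. All listed members passed the filter on low values, Meioc in overexpression only through the overexpression libraries, where it is high, so its fold there is a description and its adjusted p supports nothing. In overexpression all 5 members were called higher, where 65.3% of tested transcripts were called higher, 34.7% lower and 100% in either direction. The same 65.3% and 34.7% had all 3 overexpression libraries above or below all 3 controls. In knockdown all 6 were called lower, where 50.7% were called lower, 49.1% higher and 99.9% in either direction. All 3 knockdown libraries were below all 3 controls for 50.6% of tested transcripts and above them for 49%.

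The synaptonemal complex genes Sycp2 and Syce1 rose with overexpression and fell with knockdown. Sycp2 (chr2:178345293-178407685, minus strand, GRCm38) had 82.0, 77.6 and 69.2 normalized counts in overexpression libraries, against 10.1, 11.1 and 10.2 in their controls. All overexpression libraries stood above all controls, and the lowest was 6.25 times the highest control. The log2 fold was 2.75 ± 0.25 (SE, n = 3 each, limma, adjusted p = 4.2e-06). In knockdown libraries Sycp2 had 143, 107 and 65.1 normalized counts, against 241, 242 and 239 in their controls. The knockdown libraries differed among themselves more than the controls did, and the groups did not overlap. On the log2 scale the fold was -1.26 ± 0.25 (SE, n = 3 each, limma, adjusted p = 0.0011).

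Syce1 (chr7:140777229-140787852, minus strand) had 148, 107 and 140 normalized counts in overexpression libraries, against 33.2, 17.7 and 21.3 in their controls. The groups did not overlap, although control replicate 1 lay well above the other 2 controls. The fitted log2 fold was 2.44 ± 0.27 (SE, n = 3 each, limma, adjusted p = 1.3e-05). In knockdown libraries Syce1 had 146, 154 and 139 normalized counts, against 407, 419 and 356 in their controls. Replicates of either group lay close together, and every knockdown library was below every control. The log2 fold was -1.43 ± 0.11 (SE, n = 3 each, limma, adjusted p = 1.6e-05).

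Both cohesin genes moved the same way, and Stag3 had the strongest decrease of the 6 genes in knockdown. Smc1b (chr15:85064689-85131964, minus strand) had 70.3, 67.8 and 72.0 normalized counts in overexpression libraries, against 13.1, 11.1 and 12.9 in their controls. The overexpression replicates had an SD of 2.11, and the groups did not overlap. On the log2 scale the fold was 2.41 ± 0.25 (SE, n = 3 each, limma, adjusted p = 8.5e-06). In knockdown libraries Smc1b had 101, 85.7 and 65.1 normalized counts, against 219, 186 and 228 in their controls. The highest knockdown library stayed below the lowest control by a factor of 1.85. The fitted log2 fold was -1.34 ± 0.18 (SE, n = 3 each, limma, adjusted p = 1.3e-04).

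Stag3 (transcript at chr5:138280526-138312393, plus strand) had 214, 161 and 198 normalized counts in overexpression libraries, against 34.2, 46.5 and 37.9 in their controls. The groups were 3.45 times apart at their nearest libraries. The log2 fold was 2.24 ± 0.21 (SE, n = 3 each, limma, adjusted p = 3.9e-06), the lowest of the 5. In knockdown libraries Stag3 had 229, 232 and 247 normalized counts, against 712, 623 and 756 in their controls. The knockdown libraries were close to one another and 2.52 times apart from the nearest control. On the log2 scale the fold was -1.55 ± 0.11 (SE, n = 3 each, limma, adjusted p = 1.1e-05), a 2.94-fold lower level.

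Of the meiotic entry genes, Meioc was listed in both comparisons and Stra8 in knockdown alone. A gene can be measured and left unlisted where it did not pass the authors' test, so the level of Stra8 in overexpression libraries is not known here. Meioc (transcript at chr11:102665588-102682237, plus strand) had 27.3, 16.4 and 29.9 normalized counts in overexpression libraries, against 3.02, 4.43 and 2.77 in their controls. It was the lowest of the 5 genes in every library, and its groups did not overlap. Control replicates 2 and 3 held 4 and 3 reads, with exact 95% Poisson intervals of 1.21 to 11.4 and 0.572 to 8.11 normalized counts that cover counting error only. The fitted log2 fold was 2.51 ± 0.35 (SE, n = 3 each, limma, adjusted p = 6.1e-05), and the authors' deposited table gives 2.86, the widest difference between the 2 estimates for these genes. With a pseudocount of 5 the log2 fold of Meioc was 1.79, and with 0.5 it was 2.66. In knockdown libraries Meioc had 49.9, 31.2 and 22.2 normalized counts, against 70.3, 63.2 and 74.7 in their controls. The nearest libraries of the 2 groups were 1.27 times apart, the smallest gap of the 6 genes. The log2 fold was -1.06 ± 0.27 (SE, n = 3 each, limma, adjusted p = 0.0043).

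Stra8 (transcript at chr6:34920960-34939342, plus strand) had 10.4, 11.7 and 24.9 normalized counts in knockdown libraries, against 38.4, 32.0 and 41.6 in their controls. The groups did not overlap, and knockdown replicate 3 lay above the other 2. These values rested on 10, 15 and 18 reads in knockdown libraries and 47, 37 and 34 in the controls. On the log2 scale the fold was -1.30 ± 0.33 (SE, n = 3 each, limma, adjusted p = 0.0041). Without knockdown replicate 3 it was -1.67, while Sycp2 and Meioc then had log2 folds of -0.95 and -0.80. In bulk RNA, fewer cells with a transcript and less of it per cell cannot be told apart, for Stra8 and for all members.

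**Figure D1:**
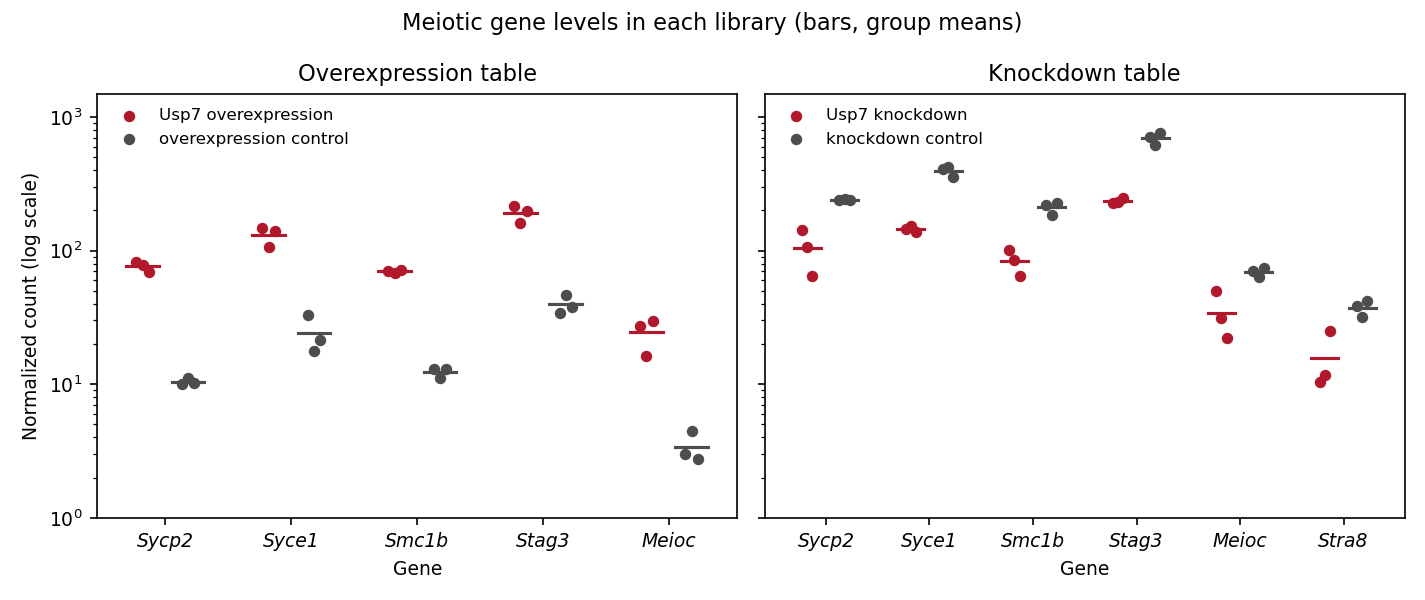
Normalized counts (log scale) of each gene in each library of the overexpression table (left, 5 genes) and the knockdown table (right, 6 genes); points are libraries and bars are means of 3. All overexpression libraries lie above, and all knockdown libraries below, their own controls.

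The size of each fold was set beside all transcripts that changed in the same direction. Among the 400 transcripts with a higher level in overexpression (median log2 fold 1.98), 63.2% had a smaller change than Stag3 and 82.5% a smaller change than Sycp2, with the other 3 members between. Among the 1476 transcripts with a lower level in knockdown (median -1.36), 26.7% had a smaller change than Meioc and 70.1% a smaller change than Stag3. Sycp2, with the strongest increase of the 5 genes, had a smaller change than Syce1, Smc1b, Stag3 and Stra8 in knockdown. Differences in fold between members were not tested, and the 95% intervals of the members overlapped within each comparison. In overexpression they ran from 2.19 to 3.31 for Sycp2 and from 1.79 to 2.70 for Stag3. In the authors' deposited table the log2 folds of the members ran from 2.28 (Stag3) to 2.88 (Sycp2) for overexpression, and from -1.56 (Stag3) to -0.998 (Meioc) for knockdown.

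**Figure D2:**
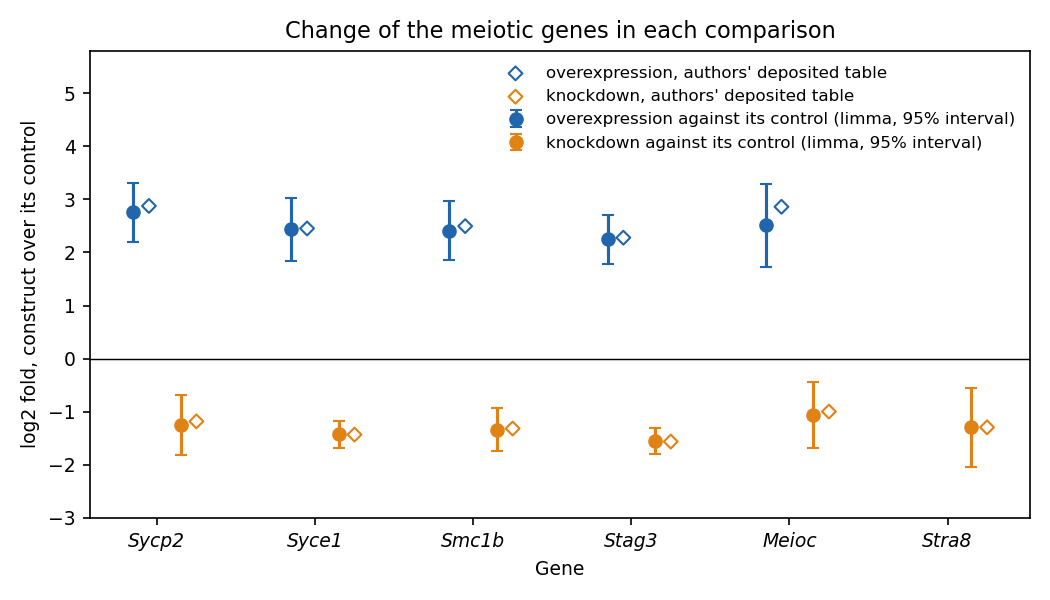
log2 fold of each gene, construct over its own control, with 95% intervals from limma (filled circles) and the fold in the authors' deposited table (open diamonds). The 5 overexpression folds lie between 2.24 and 2.75 and the 6 knockdown folds between -1.55 and -1.06; Stra8 has a knockdown value only.

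The knockdown libraries varied unevenly between genes. For Stag3 and Syce1 the coefficient of variation over knockdown replicates was 4.04% and 5.13%, and the SD was 0.601 and 0.597 times the counting error. For Sycp2, Meioc and Stra8 it was 37.3%, 41.1% and 51.4%, and the SD was 3.64, 2.31 and 2.05 times the counting error. Knockdown replicate 1 was highest and replicate 3 lowest for Sycp2, Smc1b and Meioc. Stra8 went the other way, with replicate 3 highest and replicate 1 lowest. Among the knockdown controls, Sycp2 had an SD of 1.45 normalized counts around a mean of 240.5, which is 0.0949 times its counting error. In control replicate 2, which had 735 normalized counts of the collagen gene Col1a1 against 170 and 185 in the other 2 controls, the 6 members lay between 0.21 below and 0.09 above their group means on the log2 scale. Without that library the 6 members were still called lower (limma with BH adjustment), with a median log2 fold of -1.39. In that setting 2883 of all 2902 tested transcripts were called, 1463 of them lower, so these calls do not set the members apart.

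Divided by transcript length, the levels of the 5 genes kept 1 order in nearly every library. Lengths ran from 1460 bases for Syce1 to 5717 for Sycp2 (GENCODE transcripts matched by RefSeq accession). From high to low the normalized count per kb was Syce1, Stag3, Smc1b, Sycp2 and Meioc in 11 of 12 libraries, and Smc1b and Sycp2 changed places in knockdown replicate 1. Syce1 averaged 90.2 ± 14.9 normalized counts per kb in overexpression libraries and 16.5 ± 5.55 in their controls (SD, n = 3 each). Its average was 99.9 ± 5.12 in knockdown libraries and 270 ± 22.8 in their controls. Stag3 averaged 45.3 ± 6.51 normalized counts per kb in overexpression libraries and 9.39 ± 1.503 in their controls, and 56.0 ± 2.26 in knockdown libraries and 165 ± 16.1 in their controls. Smc1b and Sycp2 were neighbours, at 20.7 ± 4.43 and 18.4 ± 6.85 per kb in knockdown libraries, and their difference was not tested. Stra8, at 10.8 ± 5.53 per kb in knockdown libraries and 25.7 ± 3.36 in their controls, lay between Meioc and Sycp2 in the group means.

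The split of the summed level between the 5 genes was also followed over the libraries. Syce1 made up 52.4 ± 1.72% of the sum in overexpression libraries and 51.4 ± 10.2% in their controls (SD, n = 3 each), and 49.4 ± 2.64% in knockdown libraries and 49.6 ± 4.05% in their controls. Stag3 made up 26.4 ± 0.284% in overexpression libraries and 30.5 ± 8.04% in their controls, and 27.8 ± 3.29% in knockdown libraries and 30.4 ± 2.92% in their controls. Over all 12 libraries Smc1b stayed between 8.57% and 11.6%, Sycp2 between 4.82% and 11.7% and Meioc between 1.81% and 5.08%. These shares do not depend on the size factor of a library, and no test was made of them.

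**Figure D3:**
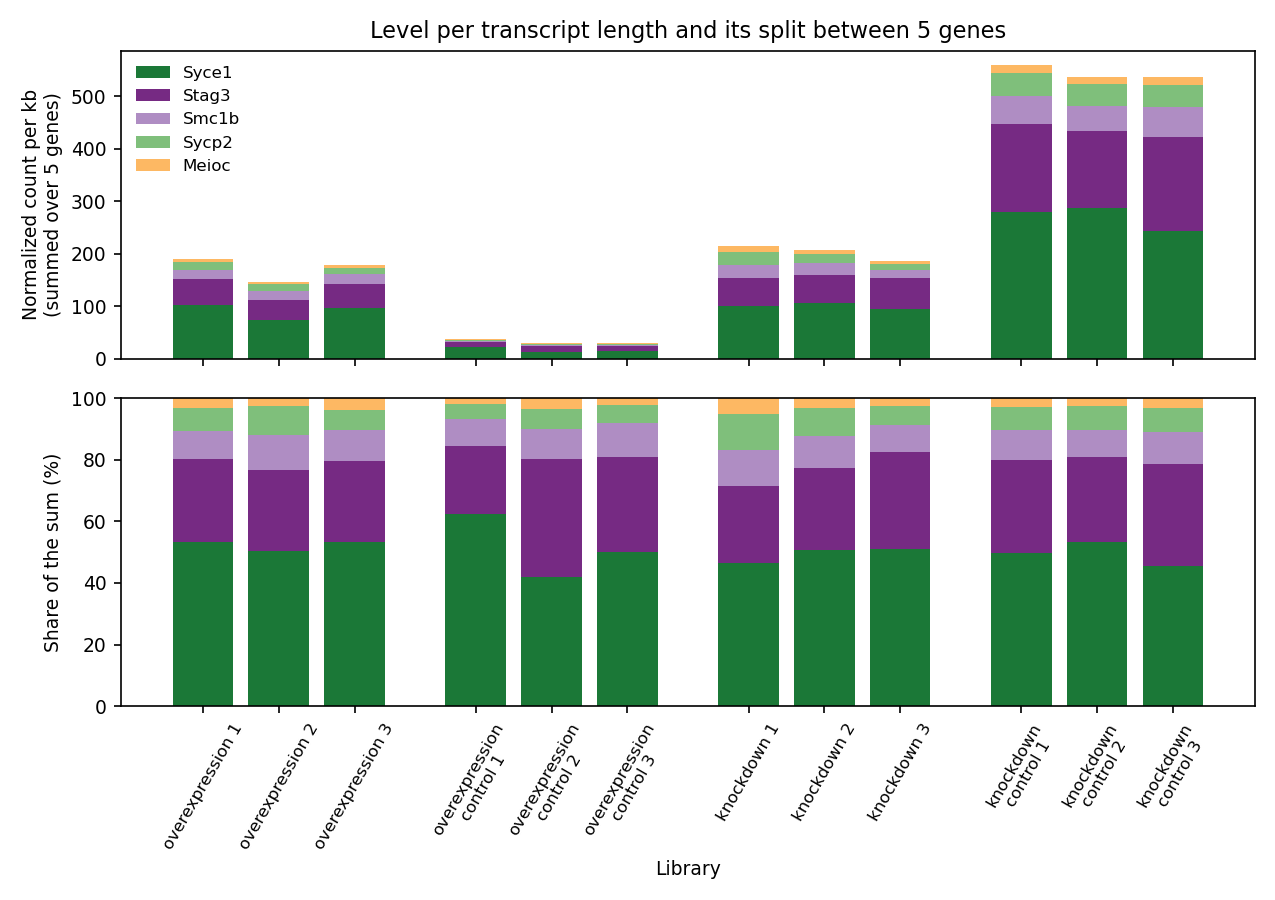
Normalized counts per kb of transcript summed over 5 genes (top) and the share of each gene in that sum (bottom), 1 bar per library. Syce1 holds between 42.1% and 62.3% of the sum in each library; the 2 tables were normalized separately, so bar heights compare only within a table.

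The levels of the 4 groups are given side by side. The tables were normalized separately, so ratios between them also hold any difference in scaling and are not read as differences in level. The summed level of the 5 genes was 172 ± 23.3 normalized counts per kb in overexpression libraries and 31.5 ± 4.34 in their controls (SD, n = 3 each). It was 203 ± 15.03 in knockdown libraries and 545 ± 12.6 in their controls. The deposited values of the knockdown control divided by those of the overexpression control gave ratios from 16.4 (Syce1) to 23.0 (Sycp2) for the members. Over the 448 transcripts listed in both tables the median of that ratio was 8.81, with quartiles of 2.19 and 14.4. Between knockdown and overexpression libraries the ratio ran from 1.11 (Syce1) to 1.40 (Meioc) for the members, beside a median of 1.03 over the shared transcripts. No test was made across the tables.

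Other genes of 4 meiotic lists (synaptonemal complex, meiotic cohesin, meiotic entry and recombination; 76 genes beside the members) were counted in the same way. In overexpression 5 were tested and 5 called higher, where 65.3% of all tested transcripts were called higher, with a median log2 fold of 1.98 beside 1.31 over all tested transcripts. In knockdown 17 were tested, of which 12 were called lower and 5 higher, where 50.7% and 49.1% of all tested transcripts were. The median log2 fold of the 17 was -1.32, beside -0.61 over all tested transcripts. Both overall medians mix higher and lower transcripts, with small folds left out by the authors' selection. Transcripts higher in overexpression had a median of 1.98, and those lower in knockdown a median of -1.36. The lists were written with earlier results of these data known, and all of these genes come from the authors' selection. Some passed the filter on low values only through the group where they are high. These were Sycp3 and Prr19 in overexpression, and Dmrt1, Hfm1, Majin, Ccdc36, Terb1 and Zglp1 in knockdown. Their folds are descriptions, and their calls support nothing.

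Of the 14 synaptonemal complex genes, 4 were tested in overexpression, all higher, and 5 in knockdown, with 4 lower and 1 higher. Sycp1, the transverse filament that bridges the lateral and central elements, had 57.2, 60.1 and 55.7 normalized counts in overexpression libraries, against 25.2, 22.2 and 26.8 in their controls (log2 fold 1.19 ± 0.23 SE). In knockdown it had 76.9, 65.5 and 90.1 normalized counts, against 125, 107 and 116 in the controls (-0.58 ± 0.16). Its change was smaller than that of either synaptonemal member in both comparisons, and that difference was not tested. Sycp3, the lateral element partner of SYCP2, had log2 folds of 1.98 ± 0.37 in overexpression and -1.04 ± 0.23 in knockdown. The gene of this list that was higher in knockdown was Trip13 (0.78 ± 0.13), an ATPase that removes HORMA-domain proteins from synapsed chromosomes and also acts in the mitotic spindle checkpoint. It had 729, 627 and 518 normalized counts in knockdown libraries, against 381, 339 and 361 in their controls.

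Of the 7 genes of meiotic cohesin and centromere protection, Sgo2a was tested beside the members, in knockdown alone. Shugoshin 2, its protein, guards centromeric cohesin and also works at mitotic centromeres. Sgo2a was higher, with 105, 87.3 and 66.5 normalized counts in knockdown libraries, against 32.7, 32.9 and 44.1 in their controls (log2 fold 1.21 ± 0.21 SE, n = 3 each, limma, adjusted p = 6.0e-04). The list of 17 mitotic cohesin genes and their loaders and releasers had 1 tested gene, also in knockdown. It was Cdca5, whose protein sororin keeps cohesin on mitotic chromosomes, and it was higher (0.64 ± 0.10). In these 2 cohesin lists the genes called lower in knockdown were Smc1b and Stag3.

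Of the 19 genes of meiotic entry and its regulators, 5 were listed in knockdown, Meioc and Stra8 among them. Dmrt1, a transcription factor that acts on Stra8 in mouse germ cells, was lower, with 6.24, 7.01 and 6.93 normalized counts in knockdown libraries, against 16.3, 23.4 and 20.8 in their controls (log2 fold -1.44 ± 0.28 SE). Zglp1, a zinc finger protein that drives the oogenic programme in mouse fetal germ cells, was higher, with 21.8, 22.6 and 22.2 normalized counts in knockdown libraries, against 11.4, 7.79 and 8.57 in their controls (1.19 ± 0.26). Sohlh1, a germ cell transcription factor, had 2.08, 0.779 and 1.39 normalized counts in knockdown libraries, against 7.35, 16.5 and 12.2 in their controls, and was too low to be tested. In overexpression Meioc was the 1 gene of the list with a value. Of the 19 retinoic acid pathway genes, Aldh1a2, which makes retinoic acid, was tested in both comparisons, with log2 folds of 1.57 ± 0.30 in overexpression and -1.62 ± 0.19 in knockdown.

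Of the 42 recombination genes, 3 were tested in overexpression, all higher, and 11 in knockdown, with 9 lower and 2 higher. Prr19 and Cntd1, whose proteins act together in crossover formation, had log2 folds of 2.28 ± 0.37 and 1.59 ± 0.28 in overexpression. Ccdc155 (Kash5), which links meiotic telomeres to dynein across the nuclear envelope, had a log2 fold of 2.06 ± 0.28 there. The strongest decreases in knockdown were those of Ccdc36 (-1.86 ± 0.42), whose protein IHO1 promotes DNA breaks, Majin (-1.81 ± 0.28), which tethers telomeres to the nuclear envelope, Tex15 (-1.80 ± 0.42) and Hsf2bp (-1.66 ± 0.25), which binds BRCA2. Tex15 had 161 normalized counts in control replicate 2, against 64.5 and 64.9 in the other 2 controls. Exo1, an exonuclease of DNA repair in all dividing cells, and Ccnb1ip1 (HEI10) were the 2 that were higher, and both were picked out after their values were seen (0.86 ± 0.12 and 1.05 ± 0.18). Of 15 oocyte genes, Nobox was listed, in knockdown alone, at 0, 0.779 and 0 normalized counts in knockdown libraries, against 1.63, 33.8 and 1.22 in their controls, so that 1 control library carried its signal.

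**Figure D4:**
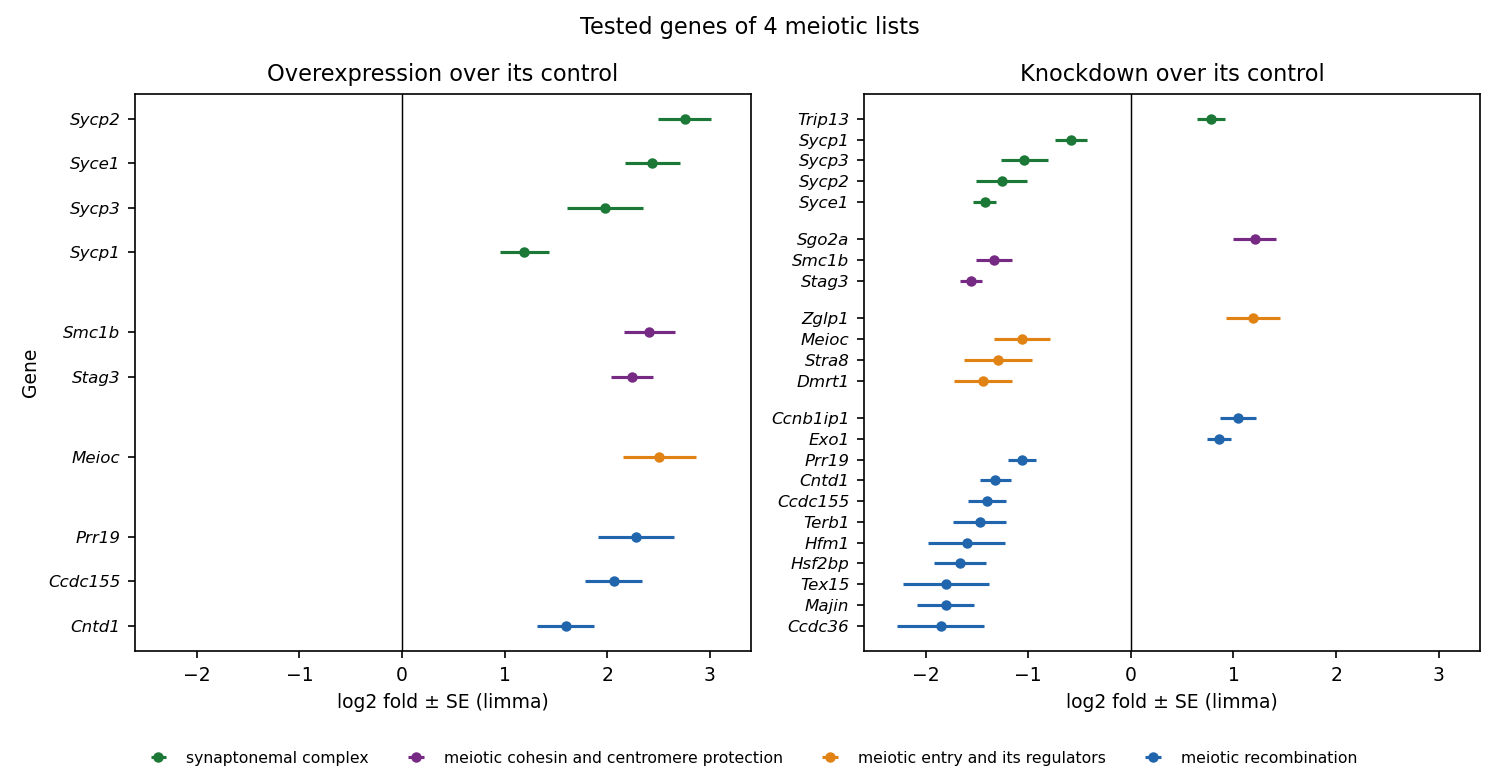
log2 fold ± SE of every tested gene of 4 meiotic lists, for overexpression (left) and knockdown (right) over its own control, with colour showing the list. All 10 tested genes (5 members among them) lie above 0 on the left; on the right Trip13, Sgo2a, Zglp1, Ccnb1ip1 and Exo1 lie above 0 and the others below.

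Markers of other cell types were listed as well, and being listed already meant being changed. Of all tested transcripts, 65.3% were called higher and 34.7% lower in overexpression, and 49.1% higher and 50.7% lower in knockdown. Of 9 spermatid genes 6 were listed in overexpression and all were lower, and their summed level was 31.7 to 55.7 normalized counts in overexpression libraries, against 1620 to 1911 in their controls. Prm2, which packs sperm DNA, led with a log2 fold of -7.46 ± 0.26, followed by Tnp2 (-7.13 ± 0.58), Prm1 (-6.26 ± 0.29) and Tnp1 (-5.84 ± 0.57). In overexpression libraries Prm2 had 1.95, 4.37 and 4.07 normalized counts and Tnp2 had 1.30, 0 and 6.79, with Prm1 and Tnp1 as low. The size and order of these folds therefore rest on the pseudocount of 1. All of them passed the filter on low values through the controls alone. In knockdown 3 spermatid genes were listed, Odf1 (-1.69 ± 0.22), Acrv1 (-1.53 ± 0.29) and Spata18 (-1.35 ± 0.25), with sums of 32.2 to 45.2 in knockdown libraries, against 113 to 126 in their controls. Of 18 markers of germ cells and germline stem cells, Mael (1.71 ± 0.20) and Tex101 (4.24 ± 0.35) were listed in overexpression, with sums of 249 to 349 normalized counts in overexpression libraries, against 55.4 to 73.1 in their controls. In knockdown 6 were listed, with sums of 878 to 976 in knockdown libraries, against 1775 to 1942 in their controls. The 4 tested were Tex101 (-1.48 ± 0.12), Mael (-1.16 ± 0.13), Id4 (-1.05 ± 0.21) and Foxo3 (-0.74 ± 0.09). Tex101 and Spata18 in overexpression, and Acrv1 in knockdown, passed the filter on low values only through the group where they are high.

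Of 8 blood cell markers, Gzmb (3.12 ± 0.15) and Ctsg (1.59 ± 0.24) were listed in overexpression, with sums of 1349 to 1657 normalized counts in overexpression libraries, against 206 to 225 in their controls. In knockdown 4 were listed, with sums of 2602 to 2785 in knockdown libraries, against 2147 to 2331 in their controls. There Gzmb was higher (0.89 ± 0.09), and Ctsg (-4.19 ± 0.30), Cd68 (-1.62 ± 0.12) and Ptprc (-1.01 ± 0.23) were lower. Of 8 fibroblast markers, Col1a2 (-2.44 ± 0.55) and Col1a1 (-2.40 ± 0.50) were listed in knockdown alone, with sums of 92.0 to 130 in knockdown libraries, against 328 to 1553 in their controls. Of 5 endothelial markers, Kdr and Cdh5 were listed in knockdown alone and too low to test, with sums of 0 to 8.31 in knockdown libraries, against 12.3 to 75.3 in their controls. Control replicate 2 was the top of the fibroblast and endothelial control ranges. It had 817 normalized counts of Col1a2, against 158 and 169 in the other controls, and 50.2 of Cdh5, against 7.35 and 12.2. No listed marker was at 0 in every library of its table, and no granulosa cell marker was among the transcripts used here. The part of these cell types in the changes of the 6 meiotic genes was not tested.

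Some transcripts outside the meiotic lists had nearly the same profile as the members. Each of 385 shared transcripts was written as its log2 value minus the mean of its controls over 12 libraries, and compared with the mean profile of the 5 members. Nearest was Adam2, a sperm surface protein gene, with a root mean square difference of 0.11 on the log2 scale, beside a median of 0.55 over all candidates. Hsf5 (0.18), a heat shock factor of spermatocytes, Stk33 (0.20), a kinase gene, and Efcab5 (0.21), which encodes an EF-hand protein, were also among the nearest. For the members themselves the difference from their own mean ran from 0.10 (Smc1b) to 0.24 (Meioc). Adam2 averaged 92.7 normalized counts in overexpression libraries and 15.5 in their controls, and 115 in knockdown libraries and 261 in their controls. Taken singly, Sycp2 and Meioc were nearest to Adam2, Syce1 to Hsf5, Smc1b to Abca17 (0.16) and Stag3 to Mroh4 (0.11). The likeness rests on group differences that all of these transcripts were selected for.

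The direction and the call of every member held under all alternatives that were run, as did nearly all transcripts of these preselected tables in most of them, while the size of the folds followed the library scaling. In overexpression the call of Meioc supports nothing, since it passed the filter on low values only through the overexpression libraries. With median-of-ratios scaling the overexpression folds ran from 1.04 (Stag3) to 1.58 (Sycp2). With column totals the knockdown folds ran from -2.36 (Stag3) to -1.86 (Meioc). The median over all tested transcripts moved too, to 0.12 in overexpression (1.31 as reported) and to -1.42 in knockdown (-0.61 as reported). The median of the members minus that of all tested transcripts was 1.12 in overexpression, and 0.94 to 1.22 over all 15 settings, the reported one included. In knockdown it was -0.71, and -0.89 to -0.59 over all 18. The overall medians mix higher and lower transcripts, and the members were chosen with earlier results known, so these differences are descriptions only. Beside transcripts of the same direction, the members' medians were 2.44 against 1.98 in overexpression and -1.32 against -1.36 in knockdown. The share of called transcripts that were higher was 65.3% in overexpression and 47.4% with median-of-ratios scaling. In knockdown it was 49.2%, and 15.3% with column totals or 39.9% with column totals that leave out the ribosomal RNA precursor Rn45s.

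**Figure D5:**
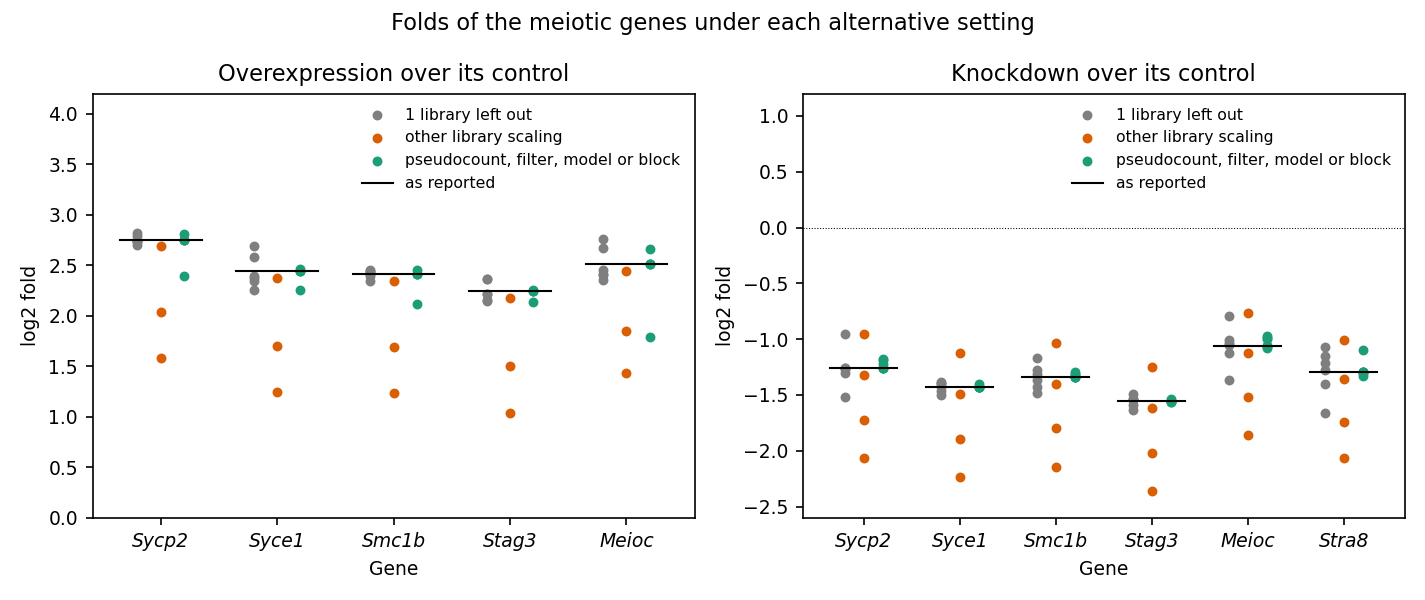
log2 fold of each gene over its own control under each alternative: 1 library left out, another library scaling, or another pseudocount, filter, model or replicate block; the black bar is the value as reported. No alternative brings an overexpression fold below 1.04 or a knockdown fold above -0.77.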

How the data were processed

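RNA-seq libraries were made from total RNA with a TruSeq kit, per the labels' protocols. Per the submitters' processing notes, Bowtie 0.12.2 and the builds mm10 and GRCm38 were used; the sources used here do not name the counter or its strand setting. Each deposited table holds the authors' normalized counts (a signal), and the authors' log2 fold with its error, test score, p-value and adjusted p-value. Columns were matched to samples by title.

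Because the deposited values were already normalized, limma 3.58.1 in R 4.3.3, with a trend in the variance, was fitted to log2(normalized count + 1) for each construct against its own control. A transcript was tested where 3 or more libraries had a value of 10 or more and its total reached 15, and calls used a BH-adjusted p under 0.05. The fit was also run on simulated counts in which, unlike in these preselected tables, only some transcripts were changed. That run says nothing about the calls made here. For 10 of 12 columns all values were whole multiples of 1 step (within 0.05 of a read), and these multiples were used as reads; the step was not found for the first replicate of overexpression or of its control. edgeR 4.0.16 and DESeq2 1.42.0 were therefore run for knockdown alone, with the size factors the steps give. Chi-square per transcript between replicates was 1.80 to 33.8 where reads were available, so each library was counted separately. Intervals cover counting error only.

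The 6 genes and all lists were chosen with earlier results of these data known. From each list, every listed gene was named where a table had at most 5, and otherwise the 4 with the largest absolute log2 fold. Likeness used transcripts in both tables with a mean of at least 10, and 1 transcript that this rule names is not reported here.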

Additional observations from a re-analysis of the deposited data

Results flagged for a closer look

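For 20 genes named above, every overexpression library lay on one side of its controls and every knockdown library on the other side of its own. The difference between the comparisons was not tested, and all of these genes were selected by the authors' test. In overexpression 65.3% of all tested transcripts had every overexpression library above every control, and 34.7% below. In knockdown 49% had every knockdown library above every control, and 50.6% below. Separation from the controls therefore does not set these 20 genes apart. The share with opposite directions among the 448 transcripts listed in both tables was not counted. Other named genes moved the same way in both comparisons. Gzmb was higher in both (3.12 in overexpression and 0.89 in knockdown). Odf1 (-2.73 and -1.69) and Spata18 (-2.41 and -1.35) were lower in both. The log2 fold in overexpression minus that in knockdown was 4.01 for Sycp2, 3.86 for Syce1, 3.75 for Smc1b, 3.80 for Stag3 and 3.57 for Meioc. Among the other genes of the meiotic lists it was 1.78 for Sycp1, 3.02 for Sycp3, 3.34 for Prr19, 3.46 for Ccdc155 and 2.91 for Cntd1. It was 3.19 for Aldh1a2, 2.88 for Mael, 5.72 for Tex101 and 5.78 for Ctsg. For the transcripts nearest in profile it was 3.69 for Adam2, 4.01 for Hsf5, 3.48 for Stk33, 3.75 for Efcab5, 3.75 for Abca17 and 3.87 for Mroh4. Those transcripts were picked for matching the members' profile, so their opposite directions followed from that choice. Stk33 averaged 16.8 normalized counts in overexpression libraries and 2.70 in their controls. It passed the filter on low values there only through the overexpression libraries, so its fold is a description.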

How the results depend on the processing

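All 5 members stayed called higher in overexpression and all 6 called lower in knockdown under every alternative run. So did most of the preselected transcripts: in overexpression every tested transcript was called except with median-of-ratios scaling (477 of 613) and TMM (519 of 613). In knockdown 2822 to 2902 of 2902 were called, except 1756 with column totals, 2452 with totals that leave out Rn45s, and 3096 of 3156 with no filter. The calls of Meioc in overexpression support nothing, since it passed the filter on low values only through the overexpression libraries. Its fold is part of the members' medians there. The median log2 fold of the members, 2.44 in overexpression, was 1.24 with median-of-ratios scaling, 1.70 with TMM and 2.14 with a pseudocount of 5, and 2.36 to 2.58 when 1 library was left out. In knockdown, -1.32 became -2.10 with column totals and -1.77 with totals that leave out Rn45s, and ranged from -1.45 to -1.27 when 1 library was left out. Transcripts called higher were 226 in overexpression with median-of-ratios scaling (400 as reported) and 269 in knockdown with column totals (1426 as reported). Same-numbered replicates did not deviate together, with correlations of -0.16 to 0.03 in overexpression and -0.08 to -0.02 in knockdown. With 1 library of each group per block, the replicate block cannot change a fold, so the members' medians stayed at 2.44 and -1.32 by design. The calls stayed at 400 and 213, and at 1426 and 1472, while adjusted p-values moved (limma with BH adjustment). That of Syce1 went from 1.3e-05 to 8.3e-10 in overexpression, and from 1.6e-05 to 2.6e-04 in knockdown. Count models were not run for overexpression, where whole reads were not recovered for 2 columns. Rn45s is not among the overexpression transcripts, so totals without it were not run there. Few reads limit the precision of Meioc in the overexpression control (4 and 3 reads in replicates 2 and 3).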
